A study of Homo sapiens with 30 samples.

Results

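Gene expression in OCI-LY19, a human diffuse large B cell lymphoma cell line, was compared between 3 untreated libraries taken at 0 h and 3 libraries taken after 24 h in 0.2 µM doxorubicin. These are 6 of the 30 libraries of the series. The labels give the line's genotype as WT and name no other agent or alteration in either group. The genes described are those with at least 1 FPKM (reads scaled to gene length and to the library's mapped reads) in 3 of these 6 libraries, which 14278 of the 60656 listed genes met. The design text calls the 3 samples of each group independent experiments. Titles of the treated libraries also hold the word ctrl, and these libraries were placed in the treated group by their treatment label. The untreated libraries were all taken at 0 h, and drug effects and effects of a further day in culture cannot be told apart. The comparison rests on 1 cell line, and in bulk RNA fewer cells of a type and less RNA per cell cannot be told apart.

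Doxorubicin is an anthracycline that traps topoisomerase II on cut DNA and leaves strand breaks. Breaks activate the kinases ATM and CHEK2, which stabilise the transcription factor p53. p53 then raises genes for cell cycle arrest, DNA repair and cell death, together with its own inhibitors. One p53 target, CDKN1A, encodes the kinase inhibitor p21. By holding RB family proteins active, p21 keeps E2F-driven replication genes and late cell cycle genes with a CHR promoter element silent. In B lymphoma cells the same drug is a backbone of standard chemotherapy.

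Recovered read totals were 25630629 to 35270765 in the untreated libraries and 31495397 to 34131768 in the treated ones. The first principal component held 82.7% of the variance and separated the groups, with untreated libraries at -48.4 to -37.5 and treated libraries at 31.1 to 50.5. Treated replicate 2 was the treated library nearest to the untreated ones. The second component, 7% of the variance, set replicate 2 of each group (-17.8 and -17.1) apart from the other libraries, which lay between 5.4 and 16.6. Column names of both replicate 2 libraries end in 2nd, which the labels do not explain. These 2 libraries alone held KRT8 (0.816 FPKM untreated, 0.564 FPKM treated) and KRT18 (0.699 and 0.375 FPKM), keratin genes of epithelial cells, where the other 4 were at 0.0191 FPKM or less. As each group had 1 such library, the replicate 2 mark is balanced between the groups, and counts of calls with that mark in the fit are given in the closing section.

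The B cell identity of the line was visible in its markers. Of 8 B cell markers 7 reached 1 FPKM, BLK being the exception, and their summed level was 425 to 477 FPKM untreated and 376 to 383 FPKM treated. CD3D, CD3E, CD3G and CD4, which define T cells, were listed at 0 in all 6 libraries. Of 9 stromal, epithelial and endothelial markers 0 reached 1 FPKM. In a wider list of 14 such markers 1 met the filter of 1 FPKM in 3 libraries. It was PDGFRB, at 3.50, 1.48 and 1.31 FPKM untreated and 5.25, 2.26 and 3.27 FPKM treated.

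Doxorubicin was followed by a change in most of the expressed genome. A gene is said to have risen or fallen where limma's moderated test on log2(FPKM + 1) gave a Benjamini-Hochberg adjusted p below 0.05 over the 14278 genes. By this rule 4886 genes rose (34.2%) and 3603 fell (25.2%), 59.5% in either direction. Counts of list members given below are to be read beside these shares. The rises were larger: 1297 genes rose and 528 fell by at least 1 on the log2 scale, 266 rose and 24 fell by at least 2, and 66 rose and 4 fell by at least 3. The 3 untreated and 3 treated values did not overlap for 9629 genes (67.4%). The share of rises among the calls was 57.6%, against 41.7% (3585 rose, 5011 fell) where libraries were scaled by their median of ratios and 44.8% (3540 rose, 4367 fell) after quantile normalization. These scalings lowered the median change of all genes, 0.09, by 0.17 and 0.14.

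Level and direction were related across genes. Among the 5423 genes whose higher group averaged under 5 FPKM, 39.0% rose and 10.7% fell. Among the 2473 genes at 20 to 100 FPKM, 24.7% rose and 50.7% fell, and above 100 FPKM 23.9% of 393 rose and 48.3% fell. More genes were detected after the drug: 28415, 26691 and 25849 genes were above 0 in the untreated libraries and 30773, 30315 and 29688 in the treated ones. FPKM of 1 was reached in treated libraries only for 853 genes and in untreated libraries only for 116. Such genes entered the test through the group in which they are high and had to differ. The same holds for a few members of several lists below. Long intergenic RNA genes rose in 49.7% of 439 cases and fell in 10.7%, while protein-coding genes rose in 32.6% of 10177 and fell in 30.1%.

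**Figure D1:**
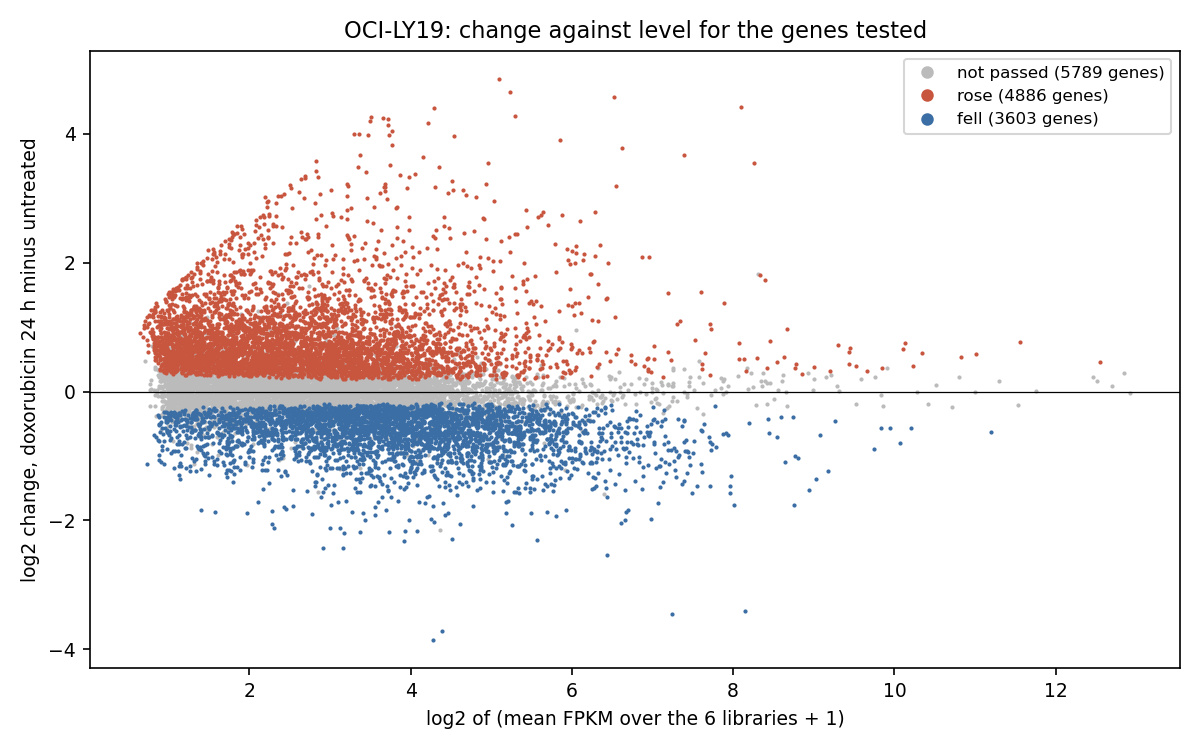
Change against level for the 14278 genes tested in OCI-LY19, with the log2 of the mean FPKM + 1 on the x axis and the log2 change (doxorubicin 24 h minus untreated) on the y axis. Each point is a gene, red where it rose (4886), blue where it fell (3603) and grey otherwise. Rises reach above 4 while only 4 called falls pass -3, and among abundant genes the calls lie nearer to 0.

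Genes known as p53 targets rose. CDKN1A (ENSG00000124762.14, chromosome 6, 36676460 to 36687339, plus strand, GRCh38) measured 26.2, 24.8 and 20.5 FPKM untreated and 545, 490.1 and 536 FPKM treated, a 22.0-fold difference of means. Its log2 change was 4.41 ± 0.11 (standard error, adjusted p = 5.46e-06). The groups were far apart and the treated values close to each other. Of 42 p53 targets 36 were tested and all 36 of these rose, 2 of them through treated libraries alone, with a median log2 change of 2.48 against 0.09 for all genes. With median-of-ratios scaling 35 of the 36 rose, and without treated replicate 2 all 36 did.

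All 6 tested genes of the p53 feedback list rose. MDM2, the ligase that degrades p53 (ENSG00000135679.25, chromosome 12, 68808176 to 68850686, plus strand), measured 14.3, 10.7 and 12.4 FPKM untreated and 163 to 195 FPKM treated (log2 change 3.77 ± 0.12, adjusted p = 8.18e-06). TP53INP1, a stress protein that helps p53 act on its death targets, went from 1.78, 1.67 and 1.75 FPKM to 48.4, 32.6 and 46.8 FPKM. The RNA-binding protein gene ZMAT3 rose from a mean of 4.51 ± 0.687 to 44.9 ± 7.37 FPKM (SD, n = 3). PPM1D, a phosphatase that shuts off the damage signal, rose from 6.13 ± 0.248 to 22.5 ± 1.66 FPKM. MDM4, the partner of MDM2, stayed within overlapping ranges (14.9 to 19.7 FPKM untreated, 18.1 to 21.5 FPKM treated) and did not pass (0.21 ± 0.12, adjusted p = 0.172), though it did with the mark in the replicate 2 library names in the fit (0.21 ± 0.07, adjusted p = 0.0433).

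Arrest and metabolism targets held the largest changes of the 4 p53 groups, with a median log2 change of 3.13 over 14 tested members. TP53I3, a quinone oxidoreductase, measured 6.65, 6.63 and 5.34 FPKM untreated and 195, 119 and 212 FPKM treated (4.57 ± 0.21, adjusted p = 2e-05). Treated replicate 2 was the lowest of the treated values there, as it was for TP53INP1 and ZMAT3. The antiproliferative gene BTG2 went from 6.20, 5.83 and 6.40 FPKM to 103, 87.8 and 130.3 FPKM. SESN2, a sensor protein that restrains mTORC1, measured 3.84, 3.67 and 3.68 FPKM and then 39.9, 40.3 and 41.2 FPKM, close within each group. CMBL, a hydrolase, rose from 0.494 ± 0.0946 to 18.2 ± 3.67 FPKM and was at 1 FPKM or more in treated libraries only.

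All 6 tested DNA repair targets of p53 rose. RRM2B, the ribonucleotide reductase subunit used outside S phase, rose from 6.46 ± 1.0 to 57.0 ± 10.7 FPKM. DDB2 and XPC, which recognise damage in nucleotide excision repair, went from 5.18 ± 0.261 to 35.4 ± 2.85 FPKM and from 11.1 ± 0.592 to 65.4 ± 8.18 FPKM. POLH, the translesion polymerase, rose from 12.6 ± 0.255 to 32.0 ± 4.88 FPKM (1.27 ± 0.11, adjusted p = 0.000198).

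Death genes on the p53 target list rose in all 10 tested cases, on both the mitochondrial and the receptor side. BBC3, which encodes the BH3-only protein PUMA, measured 1.19, 2.19 and 1.19 FPKM untreated and 20.7, 23.1 and 22.7 FPKM treated (3.22 ± 0.16, adjusted p = 2.28e-05). The death receptor genes TNFRSF10B and FAS went from 11.6 ± 0.904 to 86.6 ± 11.7 FPKM and from 2.72 ± 0.261 to 20.1 ± 2.01 FPKM. BAX, a pore-forming member of the BCL2 family, rose from 47.0 ± 1.51 to 103 ± 4.70 FPKM. Over the BH3-only and pore-forming group 6 of 10 tested genes rose and 1 fell, against 34.2% and 25.2% of all genes. With median-of-ratios scaling 4 of the 10 rose and after quantile normalization 5, with 1 fall in each.

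Survival genes did not move as a block, with 4 of 8 rising and 1 falling. BCL2L1, which encodes BCL-XL, measured 11, 10.2 and 9.86 FPKM untreated and 30.2, 20.3 and 29.4 FPKM treated (1.26 ± 0.15, adjusted p = 0.000549). BCL2 was at 22.6, 21.9 and 21.4 FPKM and then 21.5, 19.7 and 21.2 FPKM (-0.08 ± 0.07, adjusted p = 0.367). MCL1 was at 73.5 to 81.7 FPKM untreated and 71.2 to 85.4 FPKM treated (0.02 ± 0.09, adjusted p = 0.862). Of these survival genes BCL2L1 thus had separated groups while BCL2 and MCL1 overlapped. With median-of-ratios scaling BCL2 passed as a fall (-0.28). BIRC3, an inhibitor of apoptosis and NF-kB target, went from 0.117 ± 0.0448 to 3.11 ± 1.18 FPKM, and BIRC5, the mitotic survivin gene, fell from 30.2 ± 3.53 to 11 ± 3.01 FPKM.

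**Figure D2:**
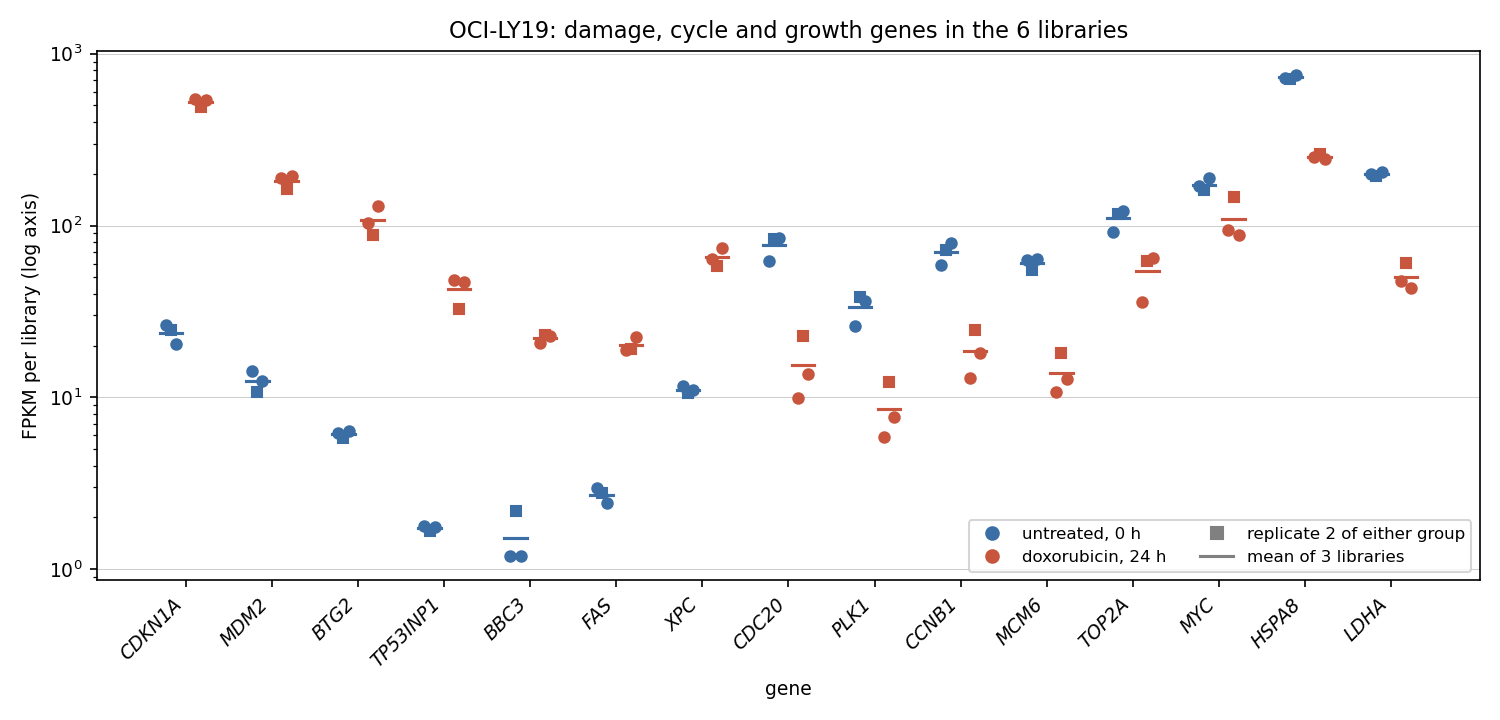
FPKM on a log axis in each of the 6 OCI-LY19 libraries for 15 damage, cell cycle and growth genes, blue for untreated and red for doxorubicin 24 h, with squares for replicate 2 and lines for the means of 3 libraries. The p53 targets from CDKN1A to XPC lie higher in the treated libraries and the cycle genes from CDC20 to TOP2A lower, and treated replicate 2 is the highest treated library for CDC20, PLK1, CCNB1, MCM6, MYC, HSPA8 and LDHA, among others.

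Mitosis genes fell together. Of 28 tested members 27 fell and 0 rose, with a median log2 change of -1.29, and the exception was CDC25C (0.08, not passed). CDC20, the activator of the anaphase-promoting complex, measured 62.5, 83.8 and 84.9 FPKM untreated and 9.89, 22.7 and 13.7 FPKM treated (-2.31 ± 0.28, adjusted p = 0.000559). PLK1, a kinase of mitotic entry, measured 25.9, 38.6 and 36.5 FPKM and then 5.85, 12.2 and 7.71 FPKM. CCNB1, which encodes cyclin B1, went from 69.8 ± 10.2 to 18.6 ± 5.91 FPKM, and the spindle checkpoint kinase gene BUB1 from 30.3 ± 3.22 to 6.92 ± 2.46 FPKM. Replicate 2 was the highest treated library for each of these 4 genes. Without it the same number of members, 27, fell, with a median of -1.46.

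Replication and nucleotide supply genes fell in 26 of 31 cases and rose in 0, with a median of -0.89. MCM6, a subunit of the replicative helicase, measured 62.9, 54.9 and 63.6 FPKM untreated and 10.7, 18.2 and 12.8 FPKM treated (-2.07 ± 0.18, adjusted p = 0.00017). GINS2, a helicase cofactor, went from 14.0 ± 0.618 to 4.73 ± 1.32 FPKM, its partner GINS3 from 9.14 ± 0.389 to 3.20 ± 0.850 FPKM and MCM3 from 108 ± 3.29 to 43.5 ± 10.7 FPKM. The 5 that did not pass were CDT1 (-0.81), PRIM1 (-0.27), PCNA (0.00), TYMS (0.00) and LIG1 (0.15). PCNA, the polymerase clamp, was at 239.9 and 241 FPKM on average.

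Promoters of these cycle genes share letters that the expression values did not choose. RefSeq windows from 250 bases before to 50 bases after the gene start (GRCh38.p14) were matched by symbol for 8405 tested protein-coding genes and searched on both strands. The CHR letters TTTGAA were present in 12 of 21 mitosis promoters matched (57.1%) and in 9.89% of all 8405. E2F letters, TTTCCCGC or TTTGGCGC, were present in 15 of 29 replication promoters (51.7%) and in 3.99% of all. The consensus of the p53 decamer was found in 3 of 30 windows of tested p53 targets and in 4.96% of all. A match is a description of the window and shows no binding, and the lists were drawn up from known cell cycle genes. The 250 bases before the start are shown for 2 falling mitosis genes with the CHR letters and 2 falling replication genes with the E2F letters, chosen after the matches were seen, the match on either strand in capitals, 5′ to 3′ on the gene's strand. CDC20 (chr1:43358731-43358980, plus strand) has matches beginning 178 and 65 bases before the start, and PLK1 (chr16:23678639-23678888, plus strand) has 1 at 29 bases. MCM6 (chr2:135876444-135876693, minus strand) has matches at 152 and 90 bases, and GINS2 (chr16:85688955-85689204, minus strand) has 1 at 31 bases.
CDC20: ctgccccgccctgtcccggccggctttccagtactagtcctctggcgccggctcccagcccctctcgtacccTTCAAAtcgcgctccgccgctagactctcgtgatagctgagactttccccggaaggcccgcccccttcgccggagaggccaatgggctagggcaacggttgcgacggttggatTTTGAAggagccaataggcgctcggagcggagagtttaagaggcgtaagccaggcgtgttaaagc
PLK1: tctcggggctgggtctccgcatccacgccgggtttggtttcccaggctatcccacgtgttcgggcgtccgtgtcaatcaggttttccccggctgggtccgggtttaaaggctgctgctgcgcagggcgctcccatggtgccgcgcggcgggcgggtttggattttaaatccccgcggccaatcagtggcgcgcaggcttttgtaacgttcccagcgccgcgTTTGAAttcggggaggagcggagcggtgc
MCM6: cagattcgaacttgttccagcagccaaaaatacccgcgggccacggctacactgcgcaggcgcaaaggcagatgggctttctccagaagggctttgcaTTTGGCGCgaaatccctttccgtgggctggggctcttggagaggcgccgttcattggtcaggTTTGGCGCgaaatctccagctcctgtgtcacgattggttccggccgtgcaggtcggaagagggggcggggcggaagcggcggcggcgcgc
GINS2: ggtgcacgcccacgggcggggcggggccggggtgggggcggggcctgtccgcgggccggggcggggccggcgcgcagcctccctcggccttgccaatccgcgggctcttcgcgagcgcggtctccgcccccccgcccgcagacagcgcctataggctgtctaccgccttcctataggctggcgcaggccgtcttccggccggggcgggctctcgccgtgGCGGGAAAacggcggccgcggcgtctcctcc

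Of 19 tested G1 cyclins, CDKs, RB and E2F genes 11 fell and 4 rose. CCND3, the D-type cyclin gene expressed here, measured 63.5, 92.4 and 83.8 FPKM untreated and 17.7, 27.1 and 18.7 FPKM treated (-1.87 ± 0.19, adjusted p = 0.000336). E2F2, an activating E2F, fell from 20.2 ± 2.12 to 7.70 ± 2.02 FPKM. RBL2, which encodes the pocket protein p130 that represses cycle genes in resting cells, rose from 15.9 ± 0.889 to 51.5 ± 10.1 FPKM. The other risers beside CDKN1A were RB1 and the repressive E2F gene E2F7 (log2 changes 0.84 and 1.27, named after their values were seen).

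Histone genes of the replication-dependent clusters went the other way from replication genes: 11 of 17 rose and 0 fell, with 1 member reaching 1 FPKM in treated libraries only. The libraries were made from polyadenylated RNA, and mRNAs of these genes normally carry no poly(A) tail. H2AC6 measured 2.46, 1.80 and 1.20 FPKM untreated and 24.6, 15.4 and 18.7 FPKM treated (2.86 ± 0.21, adjusted p = 0.0001). H4C3 was uneven before the drug, at 3.78, 7.42 and 0.663 FPKM, and then at 27.3, 23.3 and 26.2 FPKM. H2BC8 rose from 0.920 ± 0.264 to 11.9 ± 2.27 FPKM. Histone genes are near-identical copies, so the split of reads among them is uncertain.

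Break repair and checkpoint genes mostly fell, 20 of 30 against 5 rises. CHEK1, the replication checkpoint kinase, measured 20.5, 19.8 and 20.9 FPKM untreated and 6.07, 9.11 and 8.76 FPKM treated. XRCC6, the Ku70 end-binding gene, fell from 204 ± 14.6 to 107 ± 7.18 FPKM. H2AX went from 30.6, 95.9 and 46.4 FPKM to 12.3, 29.5 and 12.9 FPKM, groups that nearly touch (-1.56 ± 0.46, adjusted p = 0.023). H2AX did not pass with no filter (-1.56), without untreated replicate 3 (-1.64) or without treated replicate 1 (-1.35) or 3 (-1.38).

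The drug's own target fell. TOP2A, topoisomerase II alpha of cycling cells, measured 92.2, 116 and 122 FPKM untreated and 36.1, 62.0 and 64.9 FPKM treated (-1.04 ± 0.23, adjusted p = 0.00686). TOP2B, the isoform also present in resting cells, was at 219.8 to 268 FPKM untreated and lower in all 3 treated libraries, 139 FPKM at the lowest (-0.61 ± 0.13, adjusted p = 0.00622). TDP1, which clears trapped topoisomerase I, fell from 11 ± 0.519 to 6.86 ± 0.524 FPKM. Transport and reduction genes were few: of 14 listed 8 were tested, 3 rose and 1 fell, a share of rises near the 34.2% of all genes. ABCB1, the P-glycoprotein pump, was at 0 in 5 libraries and at 0.00484 FPKM in treated replicate 2. MVP, the major vault protein gene, rose from 1.61 ± 0.346 to 8.53 ± 1.75 FPKM, the pump gene ABCC1 from 10.5 ± 1.37 to 14.8 ± 0.956 FPKM, and the reductase gene AKR1B1 fell from 46.4 ± 5.24 to 29.5 ± 3.76 FPKM.

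Growth genes of the nucleolus fell: 21 of 21 tested MYC and ribosome biogenesis genes, with a median of -0.89. MYC measured 169, 161 and 189.5 FPKM untreated and 93.7, 147 and 87.7 FPKM treated (-0.69 ± 0.19, adjusted p = 0.0178). Treated replicate 2 stood close to the untreated libraries. MYC's fall did not pass with no filter (-0.69), with quantile normalization (-0.39), without untreated replicate 3 (-0.63), or without treated replicate 1 (-0.60) or 3 (-0.56). NCL, which encodes nucleolin, went from 371, 319 and 384 FPKM to 131, 169.7 and 133 FPKM (-1.31 ± 0.13, adjusted p = 0.000276). DKC1, the pseudouridine synthase of ribosomal and telomerase RNA, fell from 77.6 ± 5.77 to 36.7 ± 6.31 FPKM. Under quantile normalization 18 of the 21 fell. Among partners that compete with MYC for MAX, MXD4 (5.72 ± 0.983 to 17.3 ± 1.59 FPKM) and MXD1 (1.61 ± 0.254 to 6.01 ± 1.24 FPKM) rose, and MXD3, which rises in proliferating cells, fell (19.2 ± 0.766 to 9.15 ± 1.66 FPKM).

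Ribosomal protein mRNAs did not follow the biogenesis genes. Of 25 tested 13 rose and 0 fell (median 0.26), while 2 rose under median-of-ratios scaling, 20 rose after quantile normalization, and 0 fell in either. RPS19 measured 266, 267 and 288 FPKM untreated and 584, 548 and 481 FPKM treated (0.97 ± 0.10, adjusted p = 0.0003). RPL3 went from 475 ± 29.1 to 784 ± 25.9 FPKM. The elongation factor gene EEF2, one of the 5 most abundant risers, went from 792, 894 and 879 FPKM to 1344, 1464 and 1250 FPKM (0.66 ± 0.10, adjusted p = 0.00148). Such abundant genes have many pseudogene copies that can exchange reads with them.

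Most carbon metabolism genes fell. In glycolysis 16 of 22 tested genes fell and 2 rose (median -0.55). LDHA, lactate dehydrogenase A, measured 199.5, 195 and 204 FPKM untreated and 47.4, 60.3 and 43.0 FPKM treated (-1.98 ± 0.12, adjusted p = 5.6e-05). HK2, the inducible hexokinase gene, went from 29.0, 27.2 and 30.6 FPKM to 16.4, 19.1 and 15.6 FPKM. PFKFB4, an enzyme that sets fructose 2,6-bisphosphate, moved against the list, from 2.31, 2.18 and 1.38 FPKM to 19.2, 11.8 and 23.0 FPKM (2.65 ± 0.24, adjusted p = 0.000214). The second riser was ENO2, the neuronal enolase gene (3.46 ± 0.779 to 9.44 ± 2.67 FPKM), while ALDOC fell from 5.14 ± 1.51 to 1.89 ± 0.146 FPKM. In the tricarboxylic acid cycle 14 of 20 fell and 1 rose, led by DLAT of pyruvate dehydrogenase (36.8 ± 1.10 to 15.1 ± 2.17 FPKM) and fumarase, FH (82.7 ± 5.52 to 40.2 ± 5.96 FPKM). Of 21 lipid synthesis genes 10 fell and 2 rose, with the stearoyl desaturase gene SCD going from 57.9, 55.2 and 61.5 FPKM to 22.5, 30.7 and 21.6 FPKM. Of 13 mitochondrially encoded mRNAs 0 passed limma's test, at a median of 0.09 that turned to -0.12 and -0.10, with 2 falls each, under median-of-ratios scaling and quantile normalization.

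Chaperone mRNAs were among the large falls of abundant genes. Of 17 cytosolic and mitochondrial heat shock genes 15 fell and 0 rose (median -0.91). HSPA8, the constitutive HSP70, measured 726, 709 and 754 FPKM untreated and 249.6, 261 and 244 FPKM treated (-1.53 ± 0.08, adjusted p = 2.45e-05). HSPD1 and HSPE1, neighbouring genes for the mitochondrial chaperonin pair, fell from 363 ± 29.8 to 132 ± 19.2 FPKM and from 43.3 ± 3.16 to 15.9 ± 2.58 FPKM. HSP90AB1, one of the 5 most abundant fallers, measured 1132, 1056 and 1147 FPKM and then 580.1, 654 and 569.8 FPKM. Endoplasmic reticulum folding genes fell in 15 of 21 cases and rose in 2. HSPA5, the lumenal HSP70 BiP, fell from 135 ± 7.12 to 55.2 ± 4.85 FPKM, SDF2L1 from 26.8 ± 8.42 to 5.12 ± 1.72 FPKM and the transcription factor gene XBP1 from 72.7 ± 8.27 to 26.5 ± 6.04 FPKM.

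Other stress programs were mixed. In the ATF4 list 6 of 17 rose and 9 fell, against 34.2% and 25.2% of all genes. PPP1R15A (GADD34), which restarts translation, rose from 5.36 ± 1.01 to 32.1 ± 4.84 FPKM, whereas PHGDH, the first enzyme of serine synthesis, measured 35.8, 34.6 and 44.3 FPKM untreated and 6.14, 11.3 and 8.41 FPKM treated (-2.06 ± 0.20, adjusted p = 0.000262). Antioxidant genes of the NRF2 list fell in 11 of 19 cases and rose in 2. The risers were GPX1, glutathione peroxidase 1 (130.3 ± 9.29 to 341 ± 37.7 FPKM), and the ferritin gene FTH1 (63.3 to 129 FPKM untreated, up to 256 FPKM treated), and SOD1 was among the fallers (125 ± 15.2 to 63.0 ± 9.43 FPKM). Lysosomal genes rose in 19 of 21 cases and fell in 1 (median 0.71), against 16 rises and 1 fall under median-of-ratios scaling. GAA, acid glucosidase, measured 9.38, 10.9 and 8.77 FPKM and then 24.3, 24.9 and 23.5 FPKM (1.25 ± 0.09, adjusted p = 9.16e-05).

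Genes usually raised by hypoxia rose in 10 of 13 cases and fell in 0 (median 0.79). BHLHE40, a clock-linked repressor, measured 2.78, 2.14 and 2.02 FPKM untreated and 36.8, 28.6 and 43.7 FPKM treated (3.48 ± 0.16, adjusted p = 2e-05). ADM, the adrenomedullin peptide gene, went from 3.67 ± 0.528 to 19.9 ± 3.77 FPKM and DDIT4, an mTORC1 inhibitor, from 25.3 ± 2.89 to 104 ± 6.57 FPKM. Glycolytic genes, many of which hypoxia also raises, moved down as described above. Immediate early factors rose in 9 of 15 cases and fell in 2, with 2 members reaching 1 FPKM in treated libraries only. JUN measured 1.77, 2.59 and 1.27 FPKM and then 23.6, 32.0 and 27.3 FPKM, and its partner FOS rose from 1.43 ± 0.209 to 9.83 ± 0.506 FPKM.

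**Figure D3:**
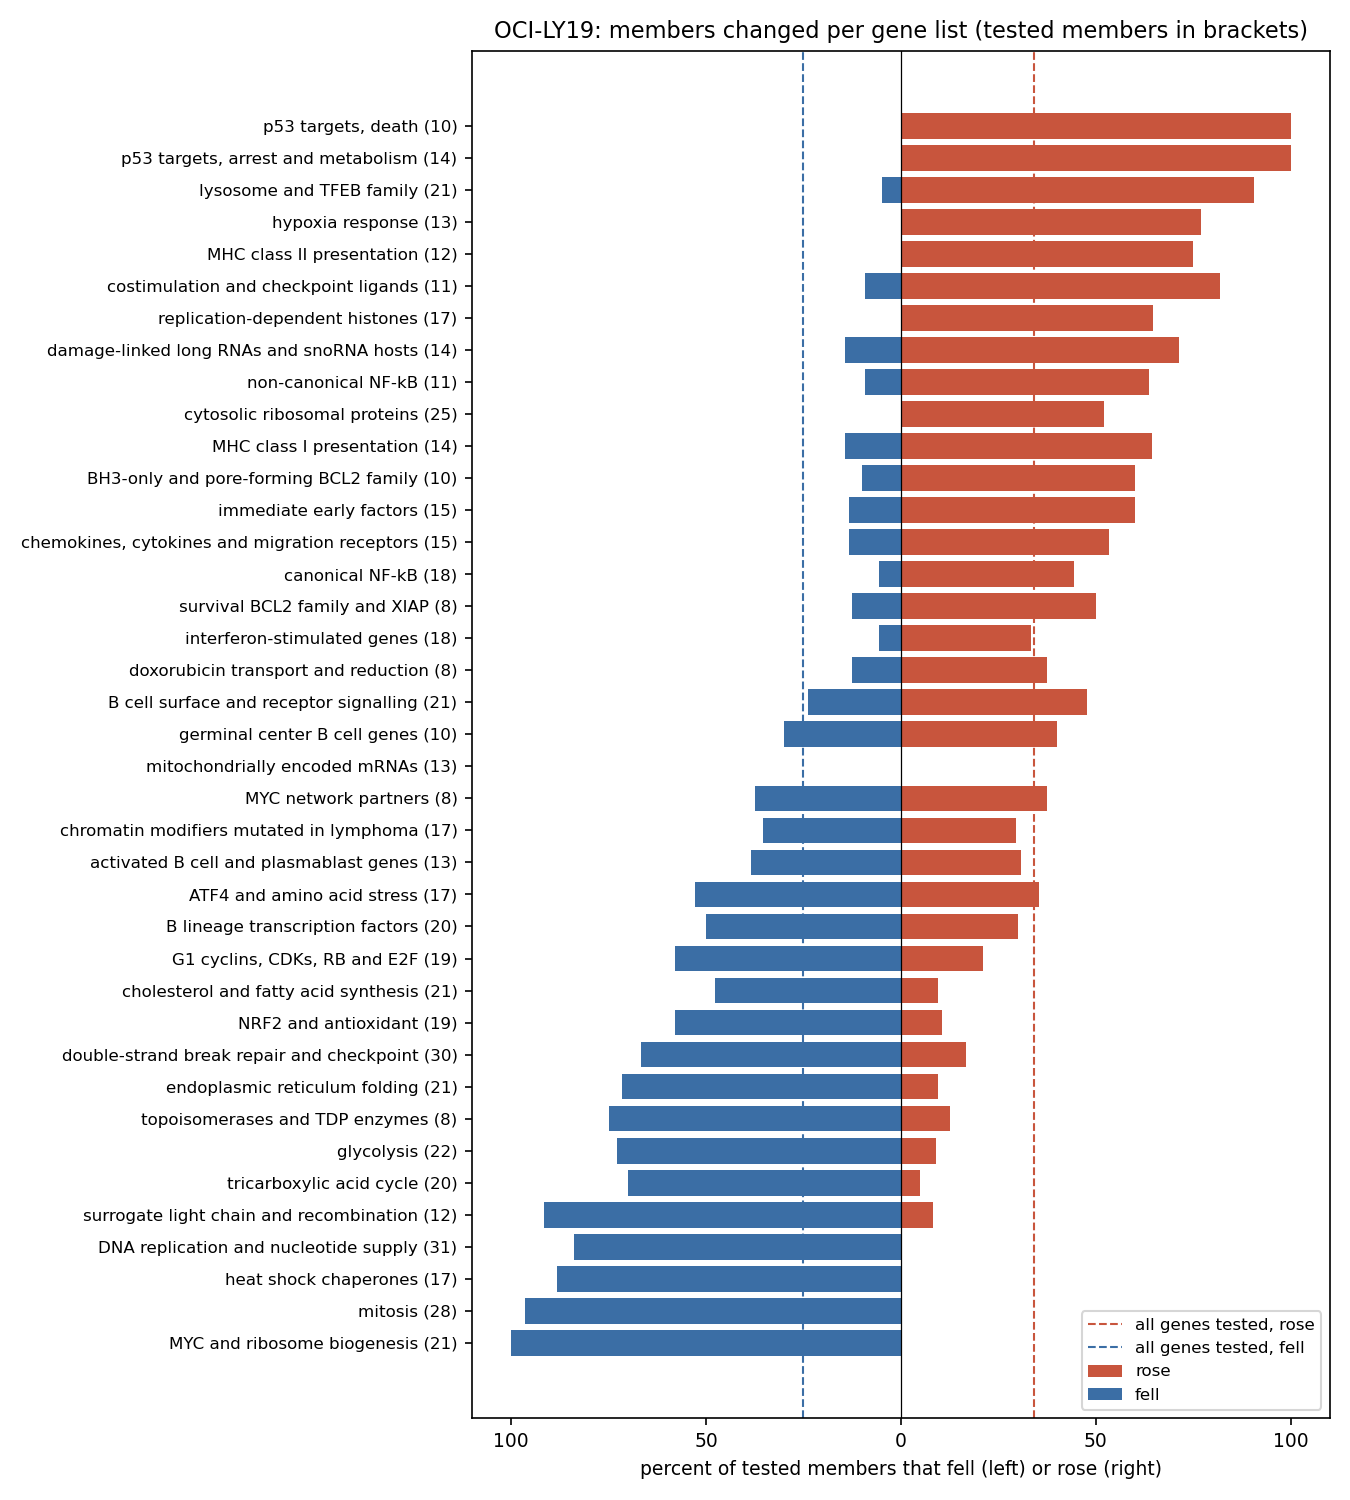
Percent of tested members that fell (blue, left) or rose (red, right) in OCI-LY19 for each gene list with at least 8 tested members, whose number stands in brackets. Dashed lines mark the shares over all genes tested, 34.2% rose and 25.2% fell. The p53 lists and the lysosome list lie at the top, and MYC and ribosome biogenesis, mitosis and heat shock chaperones at the bottom.

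B lineage genes changed in both directions. The list of surrogate light chain, recombination and early B genes fell in 11 of 12 tested cases and rose in 1, SOX4 (log2 change 1.15), with a median of -1.45. IGLL1, the lambda5 part of the surrogate light chain (ENSG00000128322.7, chromosome 22, 23573125 to 23580308, minus strand), measured 377, 636 and 511 FPKM untreated and 33.9, 105 and 26.8 FPKM treated (-3.41 ± 0.48, adjusted p = 0.00107). IGLL1 shares sequence with the lambda constant genes. Its partner VPREB1 went from 141, 153 and 184 FPKM to 34.0, 75.5 and 32.0 FPKM, and TCL1A, a coactivator of AKT, from 139, 149.5 and 146 FPKM to 24.4, 38.4 and 14.8 FPKM. Treated replicate 2 was the highest treated library for all 3, yet its values lay below every untreated one. TCL1B, the gene next to TCL1A, fell from 6.60 ± 1.37 to 1.15 ± 0.725 FPKM.

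The B cell receptor and its signalling genes did not share a direction: 10 of 21 rose and 5 fell, against 6 rises and 8 falls under median-of-ratios scaling and 10 rises and 5 falls after quantile normalization. CD79A, a signalling chain of the receptor, measured 171, 155 and 154 FPKM untreated and 40.7, 45.5 and 32.8 FPKM treated (-2.0 ± 0.12, adjusted p = 5.44e-05). The other chain, CD79B (named after its values were seen), was at 12.3 to 14.5 FPKM and then 11.6 to 12.2 FPKM (-0.13, adjusted p = 0.199). PTPN6, the phosphatase SHP-1, and CD72, an inhibitory coreceptor, rose from 2.44 ± 0.379 to 13.4 ± 2.07 FPKM and from 8.08 ± 0.496 to 25.5 ± 2.54 FPKM. CD84, an adhesion receptor of the SLAM family, fell (14.2, 12.4 and 12.9 FPKM to 2.14, 2.86 and 1.83 FPKM).

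Of 20 B lineage transcription factors 10 fell and 6 rose, against 25.2% of all genes falling and 34.2% rising. EBF1, which opens the B cell program (also named after its values were seen), measured 41.8, 35.7 and 41.4 FPKM untreated and 17.6, 17.3 and 14.9 FPKM treated (-1.21, adjusted p = 0.000143). ETS1 and IRF8 fell from 15.5 ± 1.97 to 5.01 ± 1.10 FPKM and from 31.2 ± 2.63 to 11.2 ± 4.28 FPKM. In contrast FOXO1 rose from 6.39 ± 0.254 to 25.5 ± 5.16 FPKM and POU2F2, which encodes OCT2, from 0.391 ± 0.135 to 5.55 ± 1.22 FPKM. IRF4 rose from 3.25 ± 0.646 to 5.38 ± 0.297 FPKM (0.59 ± 0.12, adjusted p = 0.00459), and BCL6, the germinal center repressor, was at 1.08 to 2.22 and 1.60 to 2.28 FPKM (0.14 ± 0.18, adjusted p = 0.519). SDC1, the plasma cell marker CD138, went from 0.432, 1.20 and 0.499 FPKM to 16.6, 16.6 and 20.0 FPKM (3.48 ± 0.17, adjusted p = 2.56e-05), while MZB1, a chaperone of antibody-forming cells, fell from 56.0 ± 6.57 to 26.3 ± 6.99 FPKM. As a whole 4 of 13 activated B cell and plasmablast genes rose and 5 fell, against 34.2% and 25.2% of all genes.

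Surface ligands by which a lymphoma cell meets T cells rose. Of 11 tested costimulation and checkpoint ligands 9 rose and 1 fell (median 1.88), 4 of them reaching 1 FPKM in treated libraries only. TNFSF4 (OX40 ligand) measured 4.10, 3.04 and 2.82 FPKM untreated and 38.9, 36.3 and 45.6 FPKM treated (3.26 ± 0.14, adjusted p = 1.51e-05). CD70, the ligand of CD27, went from 14.5, 15.9 and 12.7 FPKM to 102, 106 and 96.1 FPKM (2.74 ± 0.10, adjusted p = 9.81e-06). TNFSF9 (4-1BB ligand) went from 0.989, 1.24 and 0.493 FPKM to 20.3, 17 and 19.5 FPKM. CD274, which encodes the checkpoint ligand PD-L1, was at 0.262, 0.142 and 0.112 FPKM and then at 9.0, 4.34 and 7.34 FPKM. CD274 reached 1 FPKM in treated libraries only, so it entered the test through them and its groups had to differ. The groups of TNFSF4, CD70 and TNFSF9 were separated, and CD70 was the most abundant of the 4 named ligands after the drug.

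Migration receptors moved too, with 8 of 15 chemokine, cytokine and migration genes up and 2 down, and 3 reaching 1 FPKM in treated libraries only. CCR7, which guides cells into lymph nodes, measured 14.9, 18.4 and 18.9 FPKM untreated and 170.2, 141 and 189.6 FPKM treated (3.19 ± 0.14, adjusted p = 1.56e-05). CXCR4 went from 20.7 ± 2.71 to 56.7 ± 3.16 FPKM and the hyaluronan receptor gene CD44 from 37.5 ± 4.59 to 120.4 ± 9.56 FPKM. RGS16, a brake on signalling by such receptors, measured 25.7, 22.2 and 22.7 FPKM and then 285, 296 and 353 FPKM (3.67 ± 0.11, adjusted p = 5.46e-06).

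**Figure D4:**
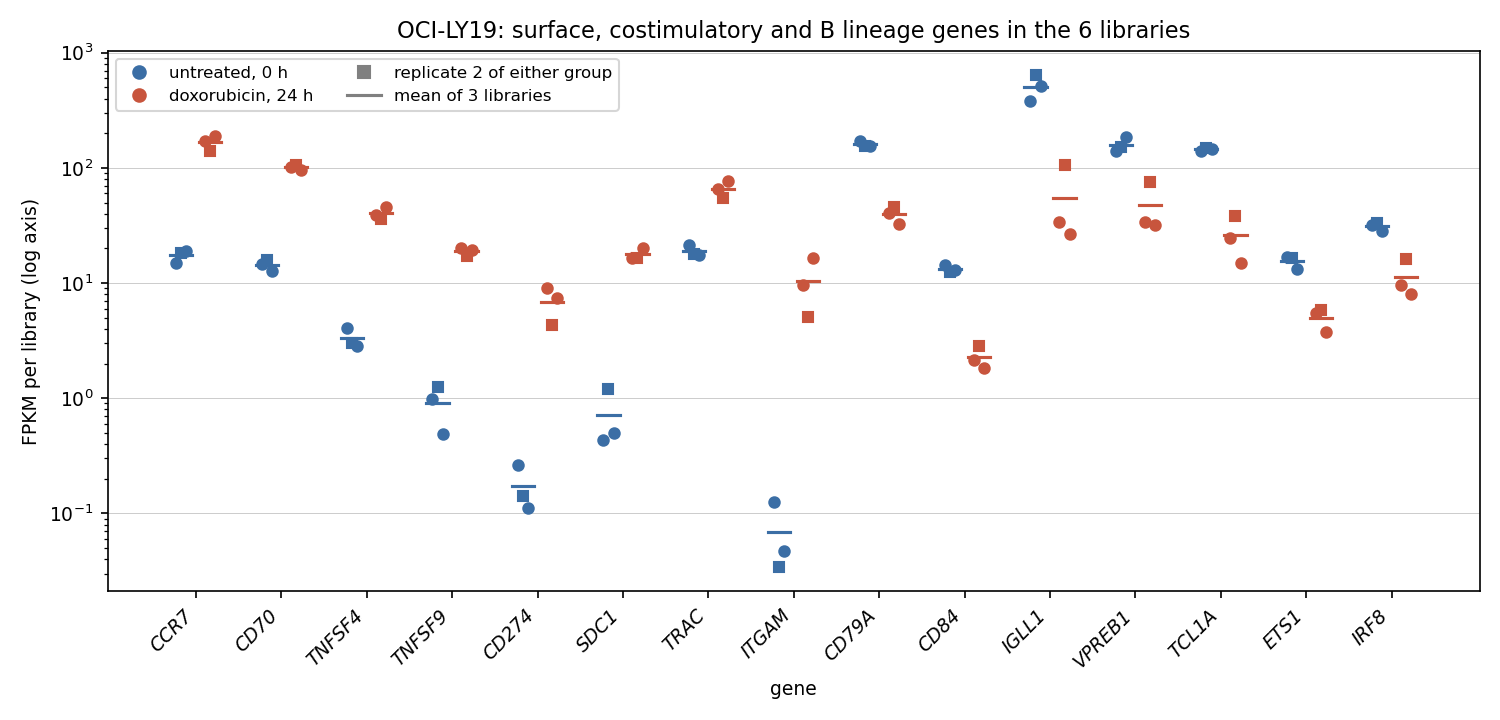
FPKM on a log axis in each of the 6 OCI-LY19 libraries for 15 surface and B lineage genes, blue for untreated and red for doxorubicin 24 h, with squares for replicate 2 and lines for means of 3 libraries. Genes from CCR7 to ITGAM are higher in all 3 treated libraries and genes from CD79A to IRF8 lower, with no overlap for any of the 15. The genes were picked from those called, some of them for having no overlap, so their separation is no separate result.

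NF-kB genes rose in part. Non-canonical components rose in 7 of 11 cases and fell in 1, and 1 member, BIRC3, reached 1 FPKM in treated libraries only. NFKB2, the p100 precursor, measured 3.28, 3.73 and 2.35 FPKM untreated and 9.12, 9.56 and 12 FPKM treated (1.45 ± 0.15, adjusted p = 0.000374), and RELB went from 2.55, 3.35 and 2.48 FPKM to 8.22, 11 and 9.83 FPKM. CD40, a receptor upstream of them, rose from 2.37 ± 1.09 to 6.95 ± 0.613 FPKM. In the canonical list 8 of 18 rose and 1 fell, against 34.2% and 25.2% of all genes. The largest rises there were TRAF1 (1.32 ± 0.787 to 11.1 ± 3.05 FPKM) and TNFAIP3, the inhibitor A20 (9.06 ± 1.54 to 39.0 ± 3.95 FPKM). Interferon-stimulated genes rose in 6 of 18 cases and fell in 1, a share of rises close to the 34.2% of all genes, against 4 rises and 4 falls under median-of-ratios scaling. TRIM22, also a p53 target in other cells, was at 15.1, 14.6 and 12.2 FPKM untreated and 89.6, 81.7 and 92.8 FPKM treated.

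MHC class I genes, which present peptides to T cells, rose in 9 of 14 cases and fell in 2, and class II genes rose in 9 of 12 and fell in 0, against 34.2% of all genes rising. With median-of-ratios scaling 6 and 7 rose and 2 and 1 fell. HLA-DOA, of class II, reached 1 FPKM in treated libraries only. TAP1, the peptide transporter, measured 9.42, 10.4 and 10.9 FPKM untreated and 32.8, 31.7 and 36.2 FPKM treated (1.62 ± 0.09, adjusted p = 3.36e-05). HLA-B went from 102 ± 11.8 to 211 ± 25.7 FPKM and HLA-DQA1 from 6.20 ± 1.28 to 15.0 ± 1.89 FPKM. HLA genes vary between people and share sequence, which limits their read counts.

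Chromatin and long RNA genes held large single changes. DNMT3A, a de novo DNA methyltransferase, rose from 4.77, 4.88 and 5.36 FPKM to 21.8, 19.3 and 26.4 FPKM, and UHRF1, which brings DNMT1 to replicated DNA, fell from 87.0, 80.9 and 94.0 FPKM to 17.4, 31.9 and 19.2 FPKM. Chromatin modifiers as a list did not lean one way, with 5 of 17 up and 6 down, against 34.2% and 25.2% of all genes. Their median of 0.11 turned to -0.09 with median-of-ratios scaling and was 0.10 after quantile normalization. Of 14 tested long RNAs and snoRNA hosts 10 rose and 2 fell, and 2 members reached 1 FPKM in treated libraries only. PURPL, a p53-induced long RNA, measured 6.17, 4.30 and 4.32 FPKM and then 56.0, 43.3 and 64.2 FPKM (3.22 ± 0.18, adjusted p = 3.6e-05), and NEAT1, the scaffold of paraspeckles, rose from 4.64 ± 1.14 to 36.1 ± 8.25 FPKM. DINOL went from 0.155 ± 0.145 to 6.58 ± 1.30 FPKM. It lies inside CDKN1A on the opposite strand, the strand setting of the counting is not given, and reads of the 2 genes may not be told apart.

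The largest called rise of all on the log2(FPKM + 1) scale was that of CSPG4, a proteoglycan of the cell surface (ENSG00000173546.7, chromosome 15, 75674322 to 75712848, minus strand), at 1.87, 1.11 and 1.0 FPKM untreated and 63.4, 66.6 and 65.3 FPKM treated (4.85 ± 0.14, adjusted p = 5.46e-06). ZNF385A, a zinc finger protein that steers p53 towards arrest genes, went from 0.853, 1.14 and 0.914 FPKM to 32.8, 30.7 and 39.4 FPKM. METTL7A, a methyltransferase of lipid droplets, went from 2.81 ± 0.411 to 74.0 ± 15.0 FPKM. The cytidine deaminase gene APOBEC3H rose from 0.794 ± 0.320 to 24.4 ± 4.27 FPKM, HSPG2 (perlecan) from 0.309 ± 0.135 to 19.8 ± 3.14 FPKM, and DRAXIN, PAPLN, CALML6 and CHRNA6 lay between 23.0 and 24.8 FPKM after the drug from means of 0.258 to 0.577 FPKM. SIGLEC14 rose from 0.140 ± 0.0250 to 20.5 ± 6.45 FPKM but has a near-identical neighbour, so its reads are uncertain. Among genes with a symbol the largest called fall was that of RASD1, a Ras-like gene induced by glucocorticoids, at 27.1, 49.8 and 36.7 FPKM untreated and 1.47, 3.54 and 1.14 FPKM treated (-3.71 ± 0.32, adjusted p = 0.000171). ALKAL2, a ligand of the receptor ALK, fell from 14.1 ± 4.95 to 1.80 ± 0.723 FPKM, SUSD3 from 12 ± 2.04 to 1.99 ± 0.516 FPKM and ANP32E, a histone H2A.Z chaperone, from 156 ± 12.5 to 37.3 ± 4.93 FPKM.

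A set of genes went from near silence to clear expression. In 31 genes all 3 untreated libraries were below 0.5 FPKM and all 3 treated ones at 5 FPKM or more, and 0 genes went the other way. Of these 31, 20 are named protein-coding genes, and those printed here were picked after their values were seen. The rule that chose these genes fixed that they differ, so no p-value is given for them here. GDF15, a circulating stress hormone and p53 target, measured 0.0679, 0.150 and 0.0735 FPKM untreated and 6.19, 6.70 and 12.3 FPKM treated. Several are best known from myeloid or granulocytic cells. ITGAM, the CD11b integrin chain, was at 0.125, 0.0343 and 0.0472 FPKM and then at 9.68, 5.06 and 16.5 FPKM, TREM2 was at 0.0259, 0 and 0 FPKM and then at 8.83, 7.09 and 20.7 FPKM, and the chemokine receptor gene CXCR2 was at 0.0706, 0.0971 and 0.0835 FPKM and then at 7.66, 5.57 and 11.2 FPKM. FCER1A, the alpha chain of the mast cell IgE receptor, went from 0.122, 0.10 and 0.230 FPKM to 16.6, 13.6 and 22.7 FPKM.

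Markers of myeloid cells were read beside these genes. Over the 8 myeloid markers the summed level was 6.03 to 9.83 FPKM untreated and 20.1 to 33.2 FPKM treated, with 3 of 8 reaching 1 FPKM: LYZ (4.32 ± 1.76 to 12.1 ± 2.29 FPKM), CSF1R (2.86 ± 0.414 to 4.42 ± 0.138 FPKM, not passed with quantile normalization, 0.24) and ITGAM. Defining monocyte and granulocyte markers stayed near 0: S100A9 was at 0 in all 6 libraries, FCGR3A and S100A8 were under 0.1 FPKM in all 6, and CD14 was at 0.118 to 0.189 FPKM untreated and 0.0178 to 0.0963 FPKM treated. Over 11 T and NK cell markers the sum went from 24.8 to 28.4 FPKM up to 62.0 to 87.4 FPKM, most of it TRAC, the constant segment of the T cell receptor alpha locus (21.5, 17.7 and 17.4 FPKM, then 65.9, 54.3 and 77.5 FPKM). NKG7, a granule gene, made up 6.74, 7.12 and 7.41 FPKM and then 4.45, 5.90 and 6.31 FPKM. PRF1, the pore-forming protein of cytotoxic cells, was at 0.0676, 0.0155 and 0.0152 FPKM and then at 1.75, 1.55 and 3.42 FPKM. It reached 1 FPKM in treated libraries only and so entered the test through them. CD3D, CD3E, CD3G, CD4 and, but for 0.0116 FPKM in treated replicate 3, CD7 were at 0. The part of other cell types in these changes was not tested beyond these levels.

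Setting the same comparison in the other 3 lines beside OCI-LY19 shows where its response differed. OCI-LY3, HT and SUDHL5 are lymphoma lines given the same 0.2 µM for 24 h, with 3 untreated and 3 treated libraries each, and share no library with OCI-LY19. The difference of 2 responses was tested as an interaction in a fit of all 24 libraries over 17645 genes. The response was higher in OCI-LY19 than in OCI-LY3 for 18.7% of genes and lower for 29.0%. Against HT 22.6% were higher and 22.6% lower, and against SUDHL5 26.5% were higher and 17.4% lower. With median-of-ratios scaling the balance turned for OCI-LY3 (4315 higher, 3893 lower) and for SUDHL5 (3839 higher, 4013 lower). Across the 14278 genes the log2 changes correlated with those of SUDHL5 at r = 0.48, of OCI-LY3 at 0.33 and of HT at 0.26, where genes are not independent replicates. Replicates of SUDHL5 differed from each other by 1.32 to 1.86 times the counting error of their reads, against 2.39 to 4.5 times in the other 3 lines. The spread of the SUDHL5 replicates may thus be technical. As the fit pools the spread of each gene over all 24 libraries, this may lower the p-values against OCI-LY3 and HT as well as SUDHL5.

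The p53 targets responded more in OCI-LY19. Their median log2 change was 0.26 in OCI-LY3, 0.20 in HT, 1.43 in SUDHL5 and 2.48 in OCI-LY19. The response was higher in OCI-LY19 for 34 of 36 members against OCI-LY3, for 35 against HT, and for 24 against SUDHL5, where 4 were lower. These members were those tested in OCI-LY19. Of them 2, CMBL among these, had reached 1 FPKM there in treated libraries only, which favours a higher response in OCI-LY19. The shares over all 17645 genes (18.7%, 22.6% and 26.5% higher) come from a filter over all 24 libraries. MDM2 changed by -0.20 in OCI-LY3, -0.11 in HT and 1.98 in SUDHL5, against 3.77 in OCI-LY19 (adjusted p of the difference 1.22e-13, 1.47e-13 and 7.9e-09). For CDKN1A the OCI-LY19 response exceeded that of OCI-LY3 (1.91) and HT (0.07), and its difference from SUDHL5 (4.06) did not pass (0.35, adjusted p = 0.231). In OCI-LY3 the gene lay at 0.395 to 1.21 FPKM untreated and 3.93 to 7.90 FPKM treated, low levels at which log2(FPKM + 1) understates a change. In HT the gene lay at 0.123 to 0.229 FPKM in all 6 libraries, against 20.5 to 26.2 FPKM in untreated OCI-LY19.

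Cycle genes followed the same order of lines in part. Mitosis genes had medians of -0.15 in OCI-LY3, -0.18 in HT and -0.81 in SUDHL5, against -1.29, and the response was lower in OCI-LY19 for 25, 24 and 14 of 28 members. Replication genes had medians of 0.50, 0.20 and -0.43, against -0.89, and 30, 26 and 14 of 31 members were lower. MCM6 changed by 0.19, 0.17 and -0.91, against -2.07, and all 3 differences passed.

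Hypoxia genes responded differently in SUDHL5 and glycolysis genes in HT and OCI-LY3. The hypoxia list rose in OCI-LY19 (median 0.79), while in SUDHL5 11 of 13 fell and 1 rose (median -1.54), and the response was higher in OCI-LY19 for 11 members and lower for 1. Against HT, where the median was 0.95, 3 were higher and 4 lower. Glycolysis genes fell in both OCI-LY19 and SUDHL5 (median -0.88) and rose in HT (0.60, 16 of 22), and the response was lower in OCI-LY19 than in HT for 17 of 22. In OCI-LY3 10 of the 22 glycolysis genes rose and 3 fell (median 0.15), and the response was lower in OCI-LY19 for 14 and higher for 0. Against SUDHL5 the glycolysis response was higher in OCI-LY19 for 11 and lower for 2. LDHA changed by -1.98 in OCI-LY19 and 0.73 in HT (difference -2.71, adjusted p = 6.85e-10). Heat shock genes fell in 14 of 17 cases in OCI-LY3 (median -0.97), in 15 in HT (-0.60) and in 9 in SUDHL5 (-0.33).

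Costimulatory ligands responded more in OCI-LY19 for 7, 8 and 8 of 11 members against OCI-LY3, HT and SUDHL5, and less for 2, 2 and 0. Many also rose in those lines, 8, 6 and 6 of the 11, with 0, 0 and 1 falling. CD70 rose by 2.17, 0.97 and 0.60 there, against 2.74. Of the members that responded more in OCI-LY19, 3, 4 and 4 had reached 1 FPKM in OCI-LY19 only with the drug. The other 4 in each case came from the 7 members that reached it in both groups. TNFSF4 changed by 0.09, -0.01 and 0.37 in those lines, against 3.26, and JUN by 0.21, 0.21 and 0.01, against 3.33, with all differences passing. Both start low in some of these lines: TNFSF4 lay between 0.0207 and 0.454 FPKM in the 18 libraries of the other lines, and JUN between 0.395 and 0.919 FPKM in those of OCI-LY3. CD79A changed by -0.61, -0.48 and -0.02, against -2.0 (adjusted p of the difference 6.96e-08, 2.87e-08 and 1.14e-09). The non-canonical gene NFKB2 rose by about as much in OCI-LY3 (1.79) and HT (1.32), and those differences of -0.34 and 0.14 did not pass (adjusted p = 0.172 and 0.616), while the response was higher than in SUDHL5 (0.19, adjusted p = 4.08e-05).

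**Figure D5:**
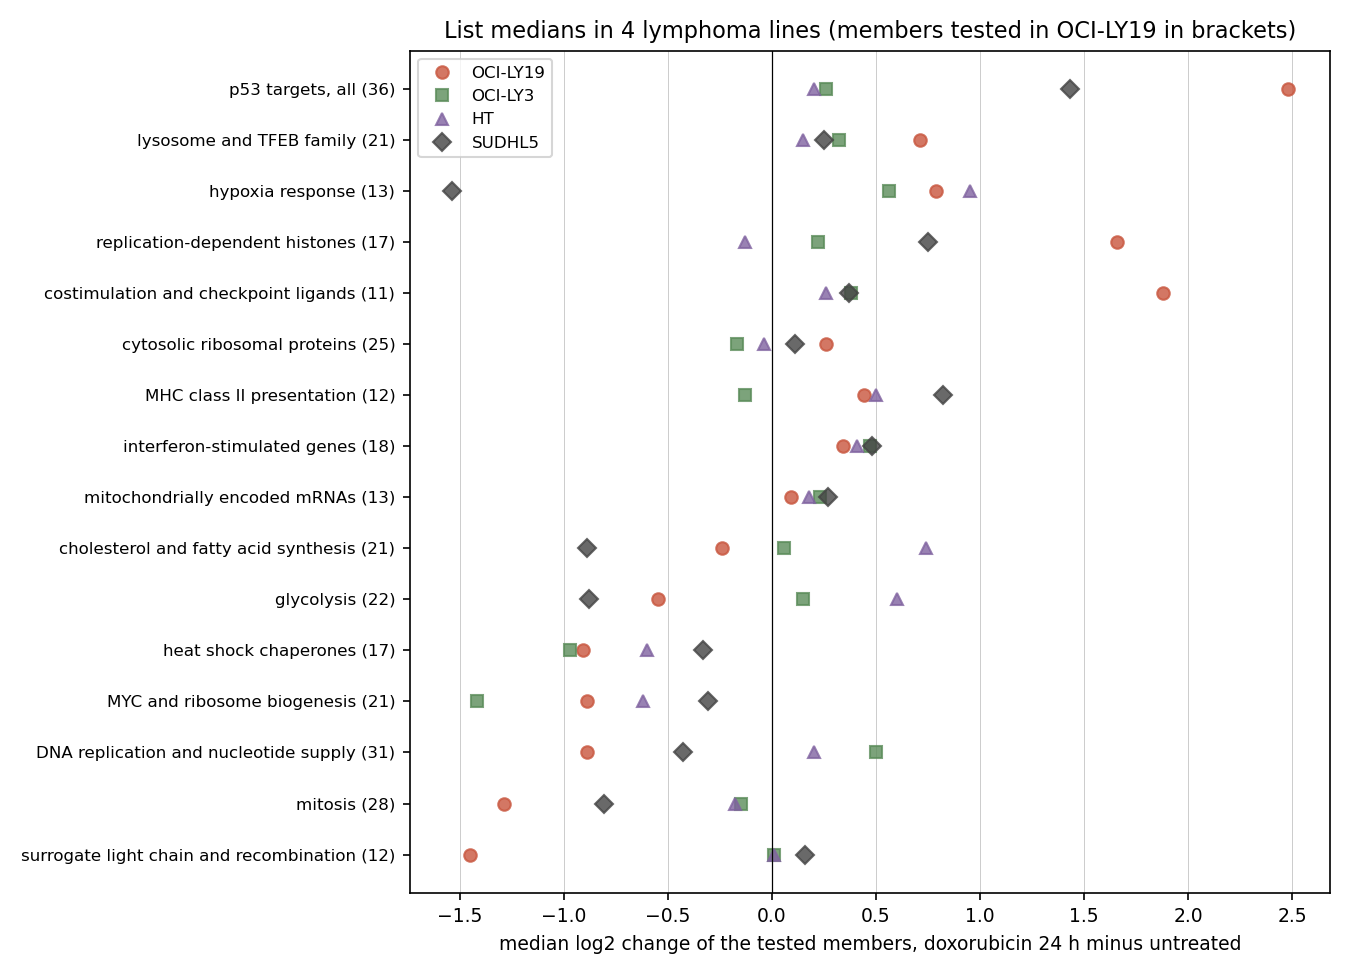
Median log2 change of the tested members (doxorubicin 24 h minus untreated) for 16 gene lists in OCI-LY19 (red circles), OCI-LY3 (green squares), HT (purple triangles) and SUDHL5 (dark diamonds). OCI-LY19 has the highest median for p53 targets (2.48), histones and costimulatory ligands and the lowest for mitosis, replication and surrogate light chain genes. In the surrogate light chain list, IGLL1 lay at 0.0436 to 0.278 FPKM in OCI-LY3, levels from which it could hardly fall on this scale. SUDHL5 lies alone at -1.54 for the hypoxia list.

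Levels in OCI-LY19S, a culture kept free of the drug, and OCI-LY19R, kept in 20 nM doxorubicin until 1 week before use, come from a table normalized separately and are given without a test. CDKN1A was at 28.6, 14.2 and 22.3 FPKM in OCI-LY19S and 25.5, 56.8 and 45.9 FPKM in OCI-LY19R, and MDM2 at 7.26, 5.87 and 6.28 FPKM and at 8.18, 10.8 and 8.49 FPKM. Both cultures were below the treated OCI-LY19 libraries for these p53 targets, across tables normalized apart. IGLL1 was at 901, 817 and 951 FPKM in OCI-LY19S and 624, 457 and 588 FPKM in OCI-LY19R, above all 3 treated OCI-LY19 libraries. ABCB1 was at 0.0131 FPKM or less in all 6.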

How the data were processed

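The values are FPKM per gene that the authors deposited, in a table of 24 libraries of 4 lines and a separate table for OCI-LY19S and OCI-LY19R. Polyadenylated RNA was sequenced from a directional kit, per the labels' protocols. Per the submitters' processing notes the tools were STAR, Trimmomatic and featureCounts on hg38. Tool versions, annotation release and strand setting: not given in the sources used here. Steps in the FPKM values gave whole reads (within 0.01 read) and so the read totals.

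Genes with FPKM of at least 1 in 3 of the 6 OCI-LY19 libraries were tested with limma 3.58.1 (R 4.3.3, lmFit and eBayes with trend) on log2(FPKM + 1), two-sided, with Benjamini-Hochberg adjustment over 14278 genes at 0.05 and 4 residual degrees of freedom. Fold changes on this scale understate changes of low genes. Differences between lines were interaction terms in a fit of 24 libraries with 16 residual degrees of freedom. Simulated data for the OCI-LY19 comparison over 14278 genes had 100 genes changed by 1 and 100 by 2 on the log2 scale. Of these 93% and 100% were recovered, and 6.76% of calls were false. In the data 59.5% of genes were called, a far larger share, so these rates do not measure the errors among those calls. The alternatives were another pseudocount, filters, scalings, fits, covariates and leaving out each library, and voom on recovered reads was added after seeing the data. Tables and figures were made with Python 3.11.15 with pandas 2.3.3, numpy 2.4.6 and matplotlib 3.10.9.

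Symbols came from a reference table for 60401 of 60656 identifiers and from the deposited table for 79. The genes printed were the 15 risers and 15 fallers with the greatest change, a mean of at least 10 FPKM and no overlap, up to 4 per list, a fixed set of damage, survival and lineage genes, 3 differences in each direction per other line, and the 5 most abundant risers and fallers. The differences were taken among genes called in OCI-LY19 with a mean of at least 10 FPKM in a group compared. Other genes were named after their values were seen. The gene lists and the comparison were chosen with earlier results of these data known. Some results for named genes are not reported here.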

Additional observations from a re-analysis of the deposited data

Results flagged for a closer look

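The response to doxorubicin differed between OCI-LY19 and another line in these genes, each by a limma interaction test in the fit of 24 libraries with 3 libraries a group. They are the 3 largest differences in each direction per line among genes that also rose or fell in OCI-LY19. Genes needed a mean of at least 10 FPKM in a group compared, and non-coding genes and pseudogenes were left out. Genes that changed only in the other line could not be named. Values are differences of log2 changes, OCI-LY19 minus the other line, with adjusted p from Benjamini-Hochberg adjustment over 17645 genes.

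Against OCI-LY3 the response was higher in OCI-LY19 for CSPG4 (4.84 ± 0.13 standard error, adjusted p = 5.04e-15), BTG2 (4.42 ± 0.18) and RGS16 (4.36 ± 0.17). BTG2 and RGS16 fell in OCI-LY3, by 0.52 and 0.69 on the log2 scale. It was lower for RASD1 (-3.69 ± 0.30), ALDOC (-3.56 ± 0.56) and IGLL1 (-3.44 ± 0.66, adjusted p = 0.000242). ALDOC, an aldolase gene, rose by 2.50 in OCI-LY3. CSPG4 lay at 0 to 0.0369 FPKM, RASD1 at 0 to 0.0433 FPKM and IGLL1 at 0.0436 to 0.278 FPKM in all 6 OCI-LY3 libraries, levels from which RASD1 and IGLL1 could hardly fall on the log2(FPKM + 1) scale.

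Against HT the response was higher for CSPG4 (4.85 ± 0.13), BTG2 (4.79 ± 0.18) and CDKN1A (4.34 ± 0.23, adjusted p = 2.96e-11). CDKN1A changed by 0.07 in HT, which did not pass, at 0.123 to 0.229 FPKM. CSPG4 lay at 0.0164 to 0.0372 FPKM and RASD1 at 0.0263 to 0.178 FPKM in HT. It was lower for GPER1, an estrogen-binding membrane receptor gene (-4.04 ± 0.36), for ALDOC (-3.85 ± 0.56) and for RASD1 (-3.76 ± 0.30). GPER1 rose by 1.92 and ALDOC by 2.79 in HT.

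Against SUDHL5 the genes with a higher response were PFKFB4 (5.95 ± 0.48, adjusted p = 1.24e-08), BHLHE40 (5.74 ± 0.24) and ADM (4.40 ± 0.15). All 3 fell in SUDHL5, by 3.30, 2.26 and 2.25 on the log2 scale, and rose in OCI-LY19. It was lower for IGLL1 (-3.98 ± 0.66), RASD1 (-3.88 ± 0.30) and FAM43A (-2.85 ± 0.34), and FAM43A rose by 1.06 in SUDHL5. RASD1 lay at 0.141 to 0.591 FPKM and IGLL1 at 0.708 to 8.69 FPKM there. Replicates of SUDHL5 spread by 1.32 to 1.86 times the counting error of their reads, less than those of the other lines, so their spread may be technical. The fit pools the spread of each gene over all its libraries, so this may lower the p-values against OCI-LY3 and HT too.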

How the results depend on the processing

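The count of rising genes, 4886, was 2568 when FPKM of 5 was required, which tests fewer genes. Every other alternative kept the counts of rising and falling genes within 1.5 times: leaving out 1 library gave 4048 to 4836 rising and 2958 to 3699 falling genes, and voom on recovered reads gave 4898 and 3660. In all 17 alternatives 0 rising genes became falling ones and 0 the reverse. The replicate number as a block gave 4948 rising and 3701 falling genes. Deviations of same-numbered libraries correlated at 0.42, 0.286 and 0.044, and those of differently numbered ones at -0.393 to 0.105. The main fit did not take the numbers as pairs. The name mark of replicate 2 as a covariate gave 5070 and 3861. Of 201 named genes tested, 182 kept their call in all alternatives, 12 lost it in some, 7 gained one in some and 0 reversed. Beside those given with their values, GAPDH, TMSB10, TOP1MT, RPS12, RPL10, EEF1A1, ACTB, BMF and AKR1C3 lost a call in at least 1 alternative. The 18 named differences between lines kept theirs. The spread between OCI-LY19 replicates was 2.78 to 4.46 times that from read counting alone, over genes with at least 200 reads.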
